A study of Homo sapiens with 6 samples.

Results

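The set comprised the glucose transporter gene SLC2A1 and 9 genes of enzymes between glucose and lactate, each represented by 1 main transcript. No phosphofructokinase or aldolase gene was included. The 10 members were SLC2A1, HK2, GPI, TPI1, GAPDH, PGK1, PGAM1, ENO1, PKM (the PKM2 form) and LDHA. These 10 transcripts were taken by their Ensembl IDs from the 203028 transcripts listed for each library, and all 10 were found. The rule names IDs and uses no measured value, but the set was proposed with earlier results of these data known. Polyadenylated RNA of HEK293 cells, an established human embryonic kidney line, had been sequenced in 3 libraries of cells with a scrambled control shRNA and 3 libraries of cells with an shRNA against PRPF39, a protein associated with the U1 small nuclear ribonucleoprotein. Both groups had received their shRNA by lentivirus and had been kept under puromycin, which selects cells with an integrated construct. Nothing in the labels states if a group's replicates came from separate transductions or cultures, and every p-value therefore rests on a spread between libraries that may be technical. The level of PRPF39 itself and markers of HEK293 cells were not analysed here.

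Glycolysis splits glucose into a pair of three-carbon molecules in the cytosol and yields ATP and NADH. Glucose enters through transporters such as GLUT1, the product of SLC2A1, and is trapped by hexokinase, which phosphorylates it. The preparatory enzymes invest ATP, the pay-off enzymes regain it, and lactate dehydrogenase restores NAD+ by reducing pyruvate. Proliferating cell lines are known for high glycolytic rates, and the transcription factors HIF1 and MYC are textbook activators of many of these genes.

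All 10 transcripts had a log2 fold change below 0 with PRPF39 shRNA, as had 51.7% of all transcripts tested. The falls were largest for SLC2A1, HK2 and PGK1, which stood at 25.6%, 31.1% and 51.6% of their control mean in TPM (the deposited transcript level, scaled for transcript length and library size). The other 7 stood at 72.1% to 83.8%. In the quasi-likelihood test of edgeR, run on the 97571 transcripts that passed the low-count filter, 3 of the 10 fell and none rose at a Benjamini-Hochberg adjusted p under 0.05, against 0.461% of all tested transcripts called lower and 0.443% called higher. When testing was limited to the 20223 transcripts averaging at least 5 CPM (counts scaled to library size), 8 of the 10 fell and none rose, against 9.12% of those transcripts called lower and 8.55% called higher. All 10 members passed both filters. The median log2 fold change of the 10 was -0.45, beside -0.02 over all transcripts tested.

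**Figure D1:**
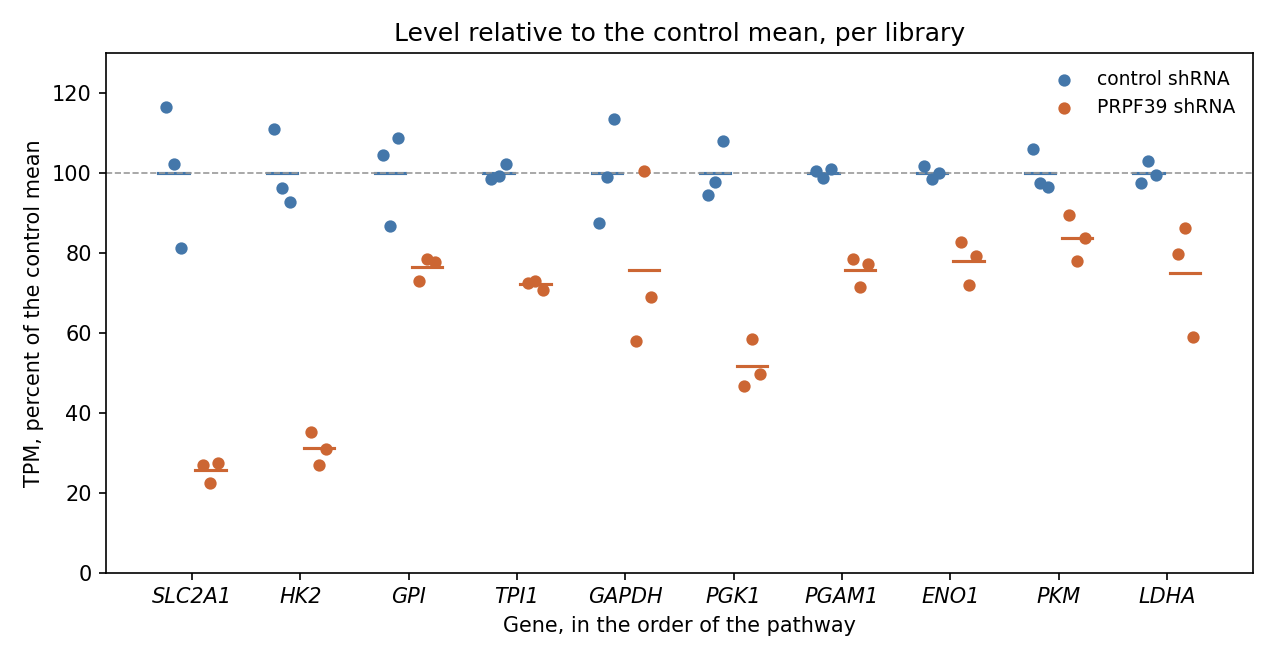
Level of each transcript in each library as a percent of its control mean in TPM (vertical axis, linear from 0), in pathway order, with points for libraries and short bars for group means. The PRPF39 shRNA libraries of SLC2A1, HK2 and PGK1 lie between 22.4% and 58.4%, and only GAPDH has a PRPF39 shRNA library above a control library.

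SLC2A1 (transcript ENST00000426263) encodes GLUT1, the transporter that brings glucose across the plasma membrane (gene on chromosome 1 from 42925353 to 42958868, RefSeq annotation of GRCh38.p14). Its transcript stood at 22.0, 19.4 and 15.4 TPM in control replicates 1, 2 and 3 and at 5.08, 4.24 and 5.20 TPM in PRPF39 shRNA replicates 1, 2 and 3. The groups were far apart, with the lowest control library 2.95 times the highest PRPF39 shRNA library. The mean fell from 18.9 ± 3.35 to 4.84 ± 0.52 TPM (SD, n = 3 each). The log2 fold change was -2.01 ± 0.15 (SE; adjusted p = 0.0167, edgeR). In the fit limited to the 20223 transcripts of at least 5 CPM its log2 fold change was -2.05, and 37 of them (0.183%), SLC2A1 included, lay as low or lower.

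HK2 (ENST00000290573) encodes hexokinase 2, an inducible form of the enzyme that phosphorylates glucose on entry (chromosome 2, from 74834127 to 74893359). Control replicates 1, 2 and 3 held 29.2, 25.3 and 24.4 TPM, and PRPF39 shRNA replicates 1, 2 and 3 held 9.28, 7.10 and 8.12 TPM. Again no library of the groups overlapped, and the lowest control was 2.63 times the highest PRPF39 shRNA library. The mean fell from 26.3 ± 2.52 to 8.17 ± 1.09 TPM (SD, n = 3 each). The log2 fold change was -1.72 ± 0.12 (SE; adjusted p = 0.0167, edgeR). In the fit at 5 CPM or more its log2 fold change was -1.77, and 69 of the 20223 transcripts (0.341%), HK2 included, lay as low or lower.

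PGK1 (ENST00000373316) encodes phosphoglycerate kinase 1, which makes the first ATP of the pay-off phase (chromosome X, from 78104248 to 78129295). The 3 control libraries gave 114, 118 and 130.3 TPM, and the PRPF39 shRNA libraries gave 56.3, 70.5 and 60.0 TPM. The groups did not overlap. The mean fell from 121 ± 8.57 to 62.3 ± 7.34 TPM (SD, n = 3 each), with a log2 fold change of -0.99 ± 0.14 (SE; adjusted p = 0.0434, edgeR). In the fit at 5 CPM or more its log2 fold change was -1.04, and 354 of the 20223 transcripts (1.75%), PGK1 included, lay as low or lower.

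The calls over all 97571 transcripts were sensitive to the loss of a library, in SLC2A1, HK2 and PGK1 alike. SLC2A1 passed without control replicate 3 (adjusted p = 0.0472, edgeR) and otherwise ranged from 0.0507 without control replicate 1 to 0.112 without PRPF39 shRNA replicate 3. HK2 passed when PRPF39 shRNA replicate 1 was left out (adjusted p = 0.0363, edgeR) and otherwise covered the same range, and PGK1 had 0.0597 to 0.194 over the 6 fits. Leaving out each library among transcripts of at least 5 CPM was a combination added after the data were seen. All 3 were then called whichever library was left out. The adjusted p (edgeR) was at most 0.00438 for SLC2A1 and HK2 and 0.0297 for PGK1.

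**Figure D2:**
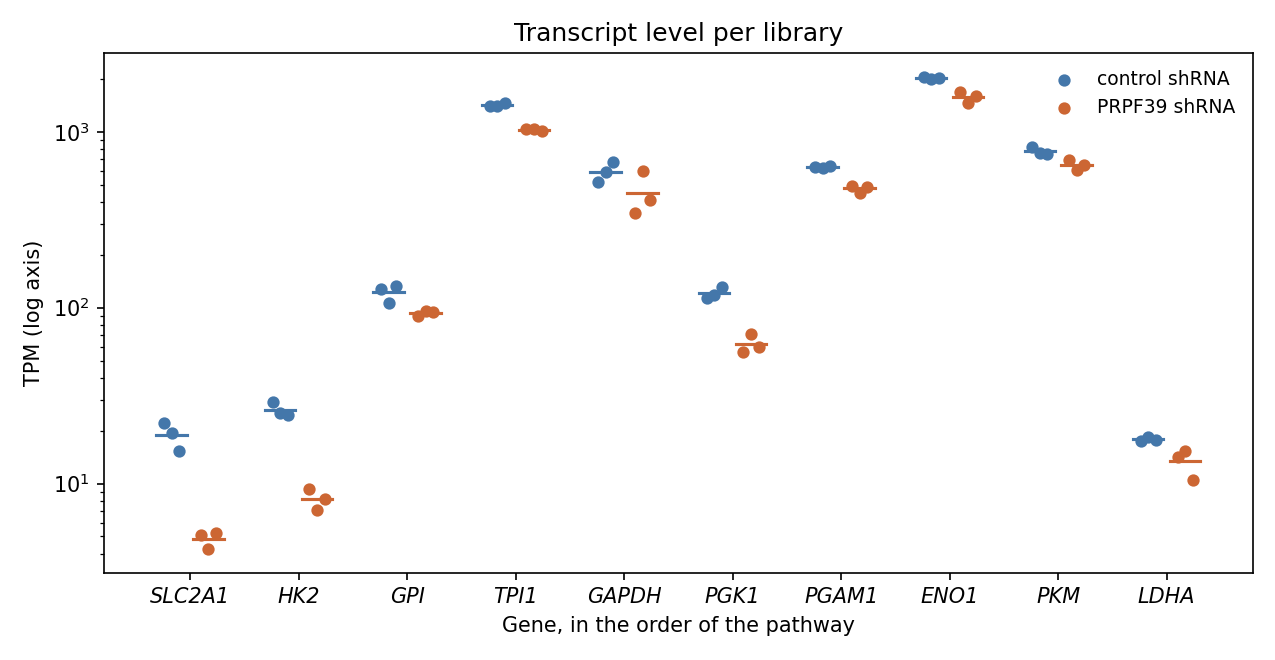
TPM of each transcript in each library (vertical log axis), in pathway order, with points for libraries and short bars for group means. Levels run from 4.24 TPM for SLC2A1 in PRPF39 shRNA replicate 2 to 2059 TPM for ENO1 in control replicate 1.

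The promoters of SLC2A1, HK2 and PGK1, whose transcripts fell most, are shown beside that of LDHA, whose smaller difference missed the threshold. Whether the output of the whole genes fell was not tested. The RefSeq table of GRCh38.p14 holds windows of 300 bases, 250 before to 50 after a start site, for all 10 genes, 13 windows in all, and the first is shown where HK2 and LDHA have more than 1. Each line gives 1 window 5′ to 3′ on the gene's own strand, with ACGTG and GCGTG, the core letters of the hypoxia response element that HIF1 binds, in capitals where found on either strand (CACGT and CACGC on the opposite strand).
SLC2A1, chr1:42958819-42959118, minus strand: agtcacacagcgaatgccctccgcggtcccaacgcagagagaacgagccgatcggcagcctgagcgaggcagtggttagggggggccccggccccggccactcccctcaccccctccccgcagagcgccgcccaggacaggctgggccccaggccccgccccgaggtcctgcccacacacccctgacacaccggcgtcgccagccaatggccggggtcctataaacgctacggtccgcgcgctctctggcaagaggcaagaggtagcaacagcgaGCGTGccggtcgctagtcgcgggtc
HK2, chr2:74833877-74834176, plus strand: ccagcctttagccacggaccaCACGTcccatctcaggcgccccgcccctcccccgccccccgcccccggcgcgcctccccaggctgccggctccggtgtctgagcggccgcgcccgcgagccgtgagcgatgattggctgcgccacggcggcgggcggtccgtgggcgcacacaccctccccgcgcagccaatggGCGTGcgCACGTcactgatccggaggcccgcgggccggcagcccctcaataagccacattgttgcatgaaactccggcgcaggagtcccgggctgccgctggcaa
PGK1, chrX:78103998-78104297, plus strand: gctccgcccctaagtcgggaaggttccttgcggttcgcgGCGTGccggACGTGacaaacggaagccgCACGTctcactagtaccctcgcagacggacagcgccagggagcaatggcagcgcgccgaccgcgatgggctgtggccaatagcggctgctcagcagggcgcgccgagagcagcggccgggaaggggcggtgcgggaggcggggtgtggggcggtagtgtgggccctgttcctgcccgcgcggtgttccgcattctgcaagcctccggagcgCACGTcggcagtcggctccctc
LDHA, chr11:18394313-18394612, plus strand: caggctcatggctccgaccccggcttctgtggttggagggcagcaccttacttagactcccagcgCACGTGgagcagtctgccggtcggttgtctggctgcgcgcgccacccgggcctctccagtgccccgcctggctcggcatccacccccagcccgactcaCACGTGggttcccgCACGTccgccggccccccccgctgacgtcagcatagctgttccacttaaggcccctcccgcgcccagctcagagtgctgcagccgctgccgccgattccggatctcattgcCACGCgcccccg

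The HK2 window holds ACGTG at 2 places, both read on the opposite strand, and the PGK1 window at 3 places. The SLC2A1 window holds no ACGTG and GCGTG at 1 place. The LDHA window holds both patterns and also CACGTG, the E-box that MYC binds, at 2 places. The second HK2 window, which is not shown, also holds CACGTG at 2 places, and the GAPDH window at 1. CACGTG contains ACGTG on each strand. Of the 13 windows of the set, 7 hold ACGTG on either strand, or 53.8%, against 21.4% of 35116 windows of all genes. HK2, TPI1 and LDHA have 2 windows each, and ACGTG is in a window of 6 of the 10 genes. GCGTG is in 9 of the 13 (69.2%) against 36.5% of all windows, and CACGTG in 3 of the 13 (23.1%) against 7.26%. When both patterns are counted on both strands, each CACGTG gives 2 matches. On this count the window of SLC2A1 holds 1 match, that of PGK1 4, the HK2 windows 3 and 6, and the LDHA windows 6 and 1. These are matches of short letters in 1 or 2 windows per gene and show neither binding nor its absence. The windows were not matched to the start sites of the measured transcripts.

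The other preparatory enzymes of the set stood at 76.3% (GPI) and 72.1% (TPI1) of their control means. GPI (ENST00000356487), glucose-6-phosphate isomerase, held 128, 106 and 133 TPM in controls 1, 2 and 3 and 89.5, 95.9 and 95.0 TPM in PRPF39 shRNA replicates 1, 2 and 3. The groups did not overlap, but the lowest control was only 1.11 times the highest PRPF39 shRNA library. The log2 fold change was -0.41 ± 0.09 (SE; adjusted p = 0.0964, edgeR), and -0.46 ± 0.10 (SE; adjusted p = 0.0227, edgeR) among transcripts of at least 5 CPM. TPI1 (ENST00000396705), triosephosphate isomerase, which interconverts the products of aldolase, held 1401, 1409 and 1453 TPM in controls and 1031, 1038 and 1005 TPM with PRPF39 shRNA. Its coefficients of variation between libraries were 1.98% in control and 1.70% in PRPF39 shRNA. Its log2 fold change was -0.50 ± 0.10 (SE; adjusted p = 0.0891, edgeR), and -0.55 ± 0.11 (SE; adjusted p = 0.0155, edgeR) at 5 CPM or more.

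Of the pay-off enzymes, PGAM1 (ENST00000334828), phosphoglycerate mutase 1, held 633, 622 and 637 TPM in controls and 494, 450.5 and 487 TPM in PRPF39 shRNA replicates 1, 2 and 3. The groups did not overlap, and the log2 fold change was -0.44 ± 0.09 (SE; adjusted p = 0.0869, edgeR). ENO1 (ENST00000234590), enolase 1, which makes phosphoenolpyruvate, was the most abundant member, at 2059, 1996 and 2023 TPM in controls and 1676, 1458 and 1607 TPM with PRPF39 shRNA. Its groups did not overlap either, and its log2 fold change was -0.40 ± 0.09 (SE; adjusted p = 0.11, edgeR). PKM (ENST00000335181), pyruvate kinase, whose PKM2 form prevails in proliferating cells, held 822, 756 and 749 TPM in controls and 694, 605 and 649 TPM with PRPF39 shRNA. This was the smallest difference of the 10, without overlap but with a gap of 1.08 times, and a log2 fold change of -0.29 ± 0.08 (SE; adjusted p = 0.172, edgeR). Among transcripts of at least 5 CPM these 3 passed, at adjusted p = 0.0154 for PGAM1, 0.0238 for ENO1 and 0.0389 for PKM (edgeR).

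Those 5 smaller falls at 5 CPM or more were less secure than the 3 large ones. The fits at 5 CPM or more with each of the 6 libraries left out in turn were added after the data were seen. In these, TPI1 lost its call when PRPF39 shRNA replicate 3 was left out (adjusted p = 0.077, edgeR). PGAM1 lost it without PRPF39 shRNA replicates 2 and 3 (0.0588 and 0.0746), and GPI without control replicate 3 and PRPF39 shRNA replicates 1 and 3 (0.0522, 0.0712 and 0.0946). ENO1 and PKM passed only without control replicate 1, at adjusted p = 0.00899 and 0.0224 (edgeR). In the other 5 fits ENO1 had 0.0544 (without PRPF39 shRNA replicate 1) to 0.106 (without PRPF39 shRNA replicate 3), and PKM had 0.0711 and 0.164 in those same fits.

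GAPDH and LDHA passed in neither fit. GAPDH (ENST00000229239), glyceraldehyde-3-phosphate dehydrogenase, the enzyme that makes NADH in the pathway and a common reference gene, held 518, 587 and 673 TPM in controls and 343, 595 and 409 TPM in PRPF39 shRNA replicates 1, 2 and 3. It was the only member whose groups overlapped, since PRPF39 shRNA replicate 2 lay above controls 1 and 2. Its log2 fold change of -0.43 had a 95% interval from -1.02 to 0.16 (adjusted p = 0.455, edgeR), which leaves room both for no change and for a fall as large as that of PGK1. LDHA (ENST00000422447), the A subunit of lactate dehydrogenase, held 17.4, 18.4 and 17.8 TPM in controls and 14.2, 15.4 and 10.5 TPM with PRPF39 shRNA. The groups did not overlap, with PRPF39 shRNA replicate 3 lowest, and the log2 fold change was -0.46, with a 95% interval from -0.89 to -0.02 (adjusted p = 0.288, edgeR; 0.0705 at 5 CPM or more). Only 1 transcript per gene was read here, and reads that match several transcripts or processed pseudogene copies were shared out by the quantifier. These TPM values may therefore miss output of GAPDH or LDHA and are not to be read as the whole. The TPM of SLC2A1, HK2, PGK1 and the other members may likewise miss output of their genes.

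**Figure D3:**
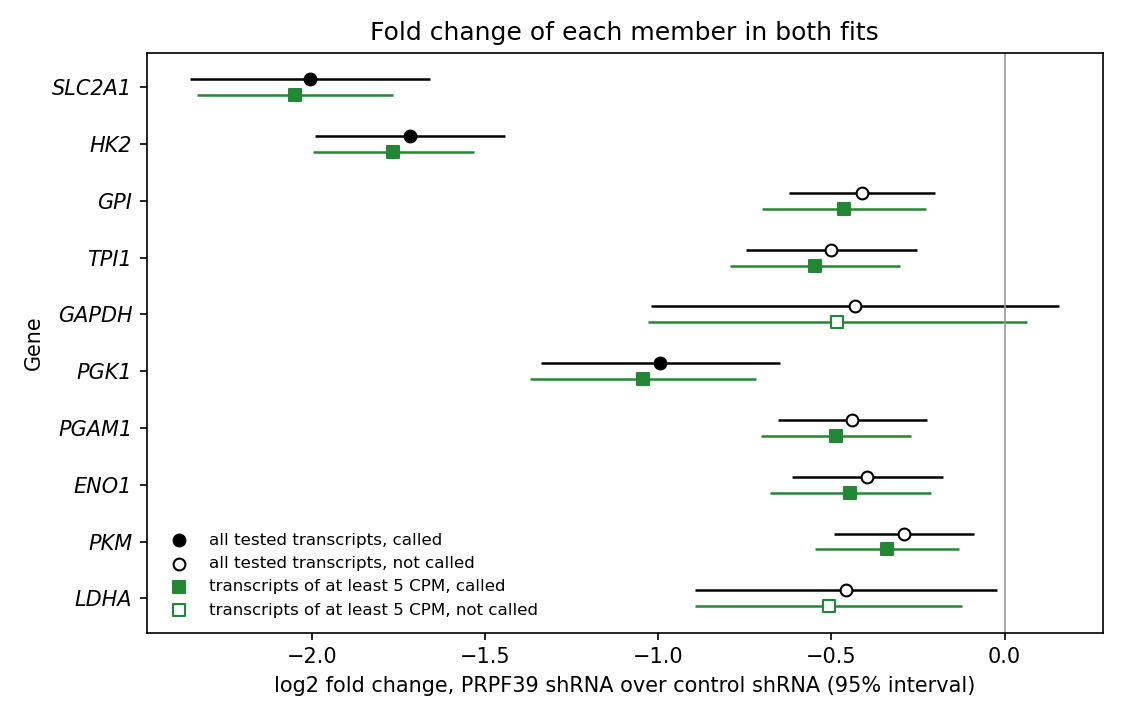
Log2 fold change of each transcript (horizontal axis, PRPF39 shRNA over control shRNA) with its 95% interval from edgeR, over all tested transcripts (circles) and over those of at least 5 CPM (squares); filled symbols passed adjusted p under 0.05. The intervals of SLC2A1 and HK2 over all tested transcripts end at -1.66 and -1.44, below the lower bounds of the 8 others, which start at -1.34 or higher.

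In CPM, 9 of the 10 members had all PRPF39 shRNA libraries below all control libraries, a pattern shown by 12.8% of all tested transcripts and by 17% of those of at least 5 CPM. Of the transcripts of at least 5 CPM, 2.01% had a log2 fold change of -1 or lower, as SLC2A1, HK2 and PGK1 had in that fit. As a description over the 6 libraries, which includes the difference between groups, the member whose log2 CPM was most like that of SLC2A1 was HK2 (Pearson r = 0.994), and the most alike pair was PGAM1 and ENO1 (r = 0.995). The bulk libraries cannot tell fewer cells that express a gene from less RNA per cell.

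**Figure D4:**
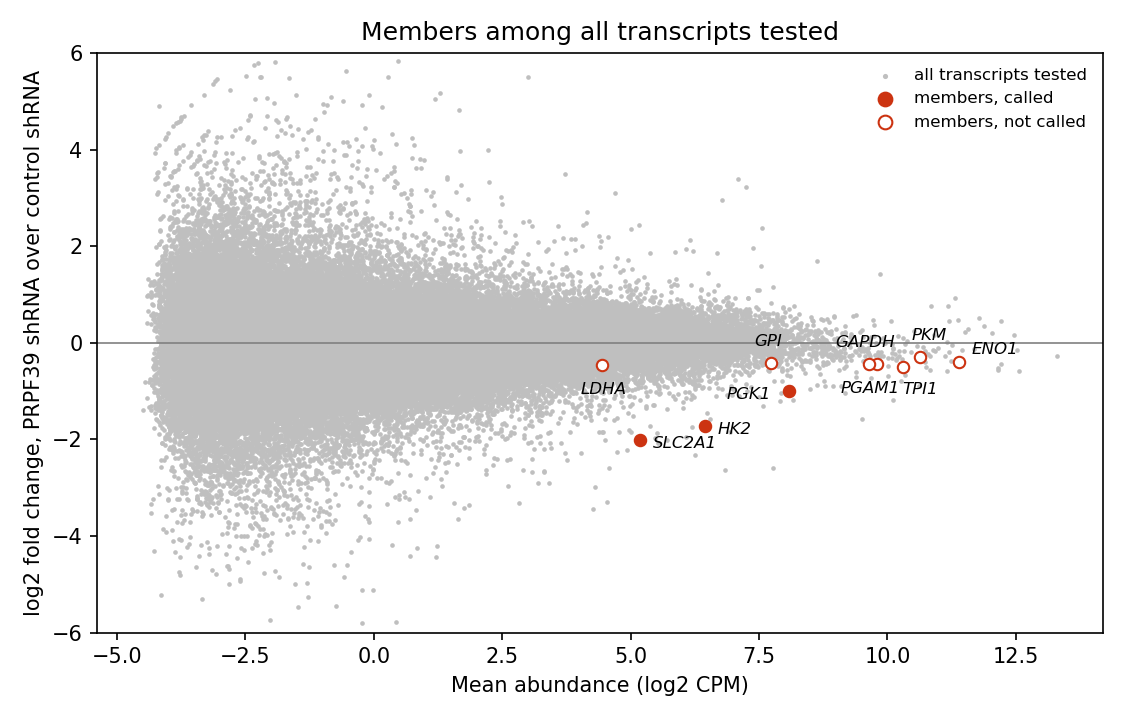
Log2 fold change (vertical axis) against mean abundance (log2 CPM, horizontal axis) for all 97571 transcripts tested (grey) and the 10 members (red, filled where called); 270 grey points lie beyond 6 in either direction and are not drawn. SLC2A1, HK2 and PGK1 lie lowest of the 10 members, at -2.01, -1.72 and -0.99.

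TPM is scaled for effective length, an estimate made per library, so levels of these single transcripts can be set side by side with caution. Effective lengths were 3505 to 3554 bases for PGK1 (length 4887) and 2346 to 2394 for GPI (length 2040). How far such corrections shift close levels was not tested. The levels also do not rank the genes, whose other transcripts were not read. The control order of the 10 transcripts was ENO1, TPI1, PKM, PGAM1, GAPDH, GPI, PGK1, HK2, SLC2A1 and LDHA. Neighbours whose control libraries overlapped were PGAM1 and GAPDH (631 ± 7.62 and 593 ± 77.2 TPM), GPI and PGK1 (122 ± 14.3 and 121 ± 8.57 TPM), and SLC2A1 and LDHA (18.9 ± 3.35 and 17.8 ± 0.50 TPM; SD, n = 3). With PRPF39 shRNA the first 7 places were the same, but GPI and PGK1 no longer overlapped, at 93.5 ± 3.51 and 62.3 ± 7.34 TPM (SD, n = 3). The LDHA transcript, last in controls, then stood above those of HK2 and SLC2A1 with no overlap, which is an order of these transcripts and not of the genes. Summed over the 10 transcripts, control libraries held 5752 ± 99.5 TPM and those of PRPF39 shRNA 4363 ± 43.5 TPM (SD, n = 3 each), or 0.575% and 0.436% of all TPM. ENO1 and TPI1 made up 35.2% and 24.7% of that sum in controls and 36.2% and 23.5% with PRPF39 shRNA, so the sum mostly follows the abundant enzymes. SLC2A1 took 0.329% of it in controls and 0.111% with PRPF39 shRNA, and HK2 took 0.457% and 0.187%.

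Levels were also set against ENO1 within each library, which needs no scaling between libraries. Per 1000 TPM of ENO1, SLC2A1 stood at 10.7, 9.70 and 7.60 TPM in controls and at 3.03, 2.91 and 3.24 TPM with PRPF39 shRNA. HK2 stood at 14.2, 12.7 and 12.1 TPM and then at 5.53, 4.87 and 5.05 TPM on the same basis. PGK1 stood at 55.3, 59.0 and 64.4 TPM and then at 33.6, 48.3 and 37.3 TPM. For all 3 the groups stayed apart. These 3 were picked for the largest falls, and ENO1 fell less (log2 fold change -0.40). Their lower ratios to ENO1 are therefore a description and not a separate result. PKM was also apart, in the other direction, with 383 ± 14.9 TPM per 1000 of ENO1 in controls against 411 ± 6.09 TPM under PRPF39 shRNA (SD, n = 3 each). GPI, TPI1, GAPDH, PGAM1 and LDHA overlapped between groups on this basis, with log2 differences of -0.11 to -0.02. Of the 9 ratios compared, those of SLC2A1, HK2, PGK1 and PKM reached an exact two-sided permutation p of 0.1. This is the smallest that 3 libraries against 3 allow, and it became 0.225 after Benjamini-Hochberg adjustment. The share of all transcripts that stood apart relative to ENO1 was not computed, so these counts have no background here.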

How the data were processed

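Build hg38 and the programs Salmon 0.11.1, STAR 2.7.9a, cutadapt 2.1 and DESeq2 1.32.0 were used, per the submitters' processing notes; options and annotation release are not given in the sources used here. The authors deposited 1 table per library with estimated counts (reads per transcript, unscaled) and TPM, which uses each library's own effective lengths. Each transcript's length and effective length, both in bases, were deposited as well. Library totals ran from 113747941 to 246491084 estimated counts, and the 10 members had 1480 to 567406 reads in a library. The uncertainty of sharing reads among transcripts was not measured. The files do not pair transcript IDs with genes: the symbols came with the list of the 10 IDs, and a list of other pathway genes was not analysed here.

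After rounding, the estimated counts were fitted in R 4.3.3 with edgeR 4.0.16, using filterByExpr by group (minimum count 10), TMM factors and the quasi-likelihood test over all 6 libraries with no covariate, adjusted over all transcripts tested. CPM were scaled with the TMM factors. Standard errors are the log2 change over the root of F. Ratios of TPM were compared by exact permutation tests with scipy 1.17.1. No pair of libraries was a duplicate (chi-square per degree of freedom at least 31.8). All 10 members are named. The members and lists were chosen with earlier results of these data known. Alternatives were other normalizations, filters and tools (DESeq2 1.42.0, limma 3.58.1), effective-length offsets, a replicate block and leaving out each library.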

Additional observations from a re-analysis of the deposited data

How the results depend on the processing

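All 10 log2 fold changes were below 0 in all 22 alternatives, and no member was called higher in any, by edgeR, DESeq2 or limma. The 3 members called lower stayed 3 with limma-voom, effective-length offsets, no low-count filter, and RLE or upper-quartile factors, and became 4, with TPI1 (adjusted p = 0.0349), by limma on log2(TPM + 1). They became 8 at 5 CPM or more and 8 with DESeq2. Pseudocounts of 0.1 or none on the TPM scale moved each log2 change by less than the SD between libraries; SLC2A1 moved most, from -1.76 to -1.96. Leaving out each library gave 0 to 1 members called lower, and 3 to 8 at 5 CPM or more, a combination chosen after the data were seen. Over all transcripts, 432 higher and 450 lower calls became 1729 and 1845 at 5 CPM or more, 4898 and 4126 with DESeq2, 0 to 14 and 0 to 12 when each library was left out, and 396 to 2049 and 493 to 2221 when it was left out at 5 CPM or more. Where no transcript was called, without PRPF39 shRNA replicate 3, 11672 had an unadjusted p under 0.05 (edgeR). Fewer libraries leave fewer degrees of freedom; otherwise the cause was not tested.

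Replicate numbers did not count as pairs, since the labels do not tie a number to a culture or day. Same-numbered libraries deviated together with correlations of only 0.07, 0.02 and 0.01. Control replicates 1 and 2 correlated less with other numbers (at most 0.03 and 0.01), and control replicate 3 correlated more (up to 0.06). These correlations do not settle whether the numbers were pairs. With the replicate block 0 members were called, and over all transcripts 0 were higher and 0 lower, although all 10 members and 14264 transcripts had an unadjusted p under 0.05 (edgeR). At 5 CPM or more the replicate block, added after the data were seen, gave 7 members lower, and 1564 higher and 1821 lower calls over all transcripts.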
